A study of Homo sapiens with 6 samples.

Results

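The genes described here are 10 regulators of mitochondrial apoptosis, BCL2, BCL2L1, MCL1, BCL2A1, BAX, BAK1, BBC3, PMAIP1, BCL2L11 and BIK, on expression arrays of SNU-449 cells, a human hepatocellular carcinoma line. A probe set, the unit in which the array reports a transcript, was taken as a member when the platform annotation gave it exactly 1 of these symbols. This gave 28 probe sets of 9 genes among 54613 probe sets tested. BBC3 is named only by 1 probe set that carries other gene names as well and was therefore not analysed here. The arrays fall into 2 groups of 3, SNU-449 cells labelled as stably overexpressing USP48, a ubiquitin-specific protease, and SNU-449 cells labelled as carrying the empty vector. The treatment protocol describes a lentivirus carrying USP48 and selection with puromycin, while the titles speak of transfection. The labels give no promoter for the transgene and do not say whether the cells were 1 clone or a pool. Nothing in them tells if the replicates are separate cultures, so the p-values reflect the spread between these arrays alone, which may be technical.

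The BCL2 family controls the permeability of the mitochondrial outer membrane. Its anti-apoptotic proteins bind and restrain the effectors BAX and BAK1, which otherwise form pores that release cytochrome c. The BH3-only proteins start the process by occupying the groove of the anti-apoptotic proteins or by acting on the effectors, and in hepatocytes MCL1 and BCL2L1 are known to be needed for survival.

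Promoter sequences are shown for the BH3-only gene with the largest difference between the groups and for both effector genes, of which BAK1 changed and BAX was not called. They come from RefSeq (GRCh38.p14), run from 250 bases before to 50 bases after a gene start, and are written 5′ to 3′ on the strand of the gene. Capitals mark matches on either strand to the motifs described next. PMAIP1 lies on the plus strand (chr18:59899746-59900045), BAK1 on the minus strand (chr6:33580227-33580526) and BAX on the plus strand (chr19:48954625-48954924).
PMAIP1: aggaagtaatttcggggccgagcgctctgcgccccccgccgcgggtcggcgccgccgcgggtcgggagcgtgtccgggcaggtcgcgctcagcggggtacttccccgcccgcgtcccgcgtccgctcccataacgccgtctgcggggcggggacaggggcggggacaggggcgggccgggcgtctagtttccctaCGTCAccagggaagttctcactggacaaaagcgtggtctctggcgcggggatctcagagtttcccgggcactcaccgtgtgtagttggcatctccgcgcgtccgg
BAK1: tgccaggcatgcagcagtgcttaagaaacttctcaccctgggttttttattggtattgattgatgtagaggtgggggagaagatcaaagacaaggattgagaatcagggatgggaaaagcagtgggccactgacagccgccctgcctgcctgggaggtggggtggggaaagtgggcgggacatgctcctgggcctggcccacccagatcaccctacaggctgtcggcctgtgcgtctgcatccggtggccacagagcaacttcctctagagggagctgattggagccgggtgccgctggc
BAX: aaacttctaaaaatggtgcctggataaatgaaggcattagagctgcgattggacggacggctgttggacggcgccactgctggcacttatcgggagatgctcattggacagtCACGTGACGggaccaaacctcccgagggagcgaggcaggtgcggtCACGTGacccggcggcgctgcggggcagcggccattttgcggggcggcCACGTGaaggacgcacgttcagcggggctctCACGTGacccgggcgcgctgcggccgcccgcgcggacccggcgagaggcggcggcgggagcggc

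The motifs searched were TGACG (the core of the cAMP response element), TGANTCA (AP-1), CACGTG (E-box), the interferon-stimulated response element (TTTC, any 2 bases, TTTC), TGATGNAA (C/EBP-ATF) and the κB motif, each on both strands, and 8 member genes, all but MCL1 and BIK, had 9 promoters in the table. The PMAIP1 window held 1 TGACG match, beginning 55 bases before the start, a motif found in 24.6% of all 35116 promoters of the table. The BAX window held 4 CACGTG matches, beginning 138, 93, 45 and 14 bases before the start, the first of which overlaps a TGACG match, and 7.26% of all promoters held a CACGTG. The BAK1 window held no match. BCL2A1 had 1 interferon-stimulated response element and 1 TGATGNAA match, motifs in 3.57% and 3.62% of all promoters. BBC3 had 2 interferon-stimulated response element matches, which overlap each other and lie after the gene start. It also had 1 CACGTG and 1 TGANTCA match, and BCL2 and BCL2L1 each had 1 TGACG match. TGANTCA and the κB motif, in 7.71% and 11.3% of all promoters, had a match in 1 and 0 of the 9 member promoters. A match is a description of the letters in these windows and not a bound site.

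USP48 was examined first as a check of the labels, and no probe set of it was called higher in the USP48-labelled arrays. Of its 5 probe sets, 220079_s_at had 7.19, 6.94 and 7.05 in USP48-labelled arrays, against 7.88, 7.83 and 7.94 in empty vector arrays (log2 values, limma adjusted p = 0.00013). Probe set 220078_at was lower too (log2 difference -0.63, limma adjusted p = 0.000852), and the remaining probe sets, at -0.13, 0.24 and -0.25, were not called. It is unknown if any of these probe sets detects the introduced copy, and every direction is therefore between arrays as labelled. The 18 hybridization control probe sets averaged 10.09 ± 0.10 in USP48-labelled arrays and 9.79 ± 0.04 in empty vector arrays (log2 values, SD, n = 3 each; two-sided exact permutation test, p = 0.1, the lowest value possible with 3 arrays a group). The 27 poly-A control probe sets averaged 5.10 ± 0.21 in USP48-labelled arrays and 4.71 ± 0.12 in empty vector arrays (exact permutation test, p = 0.1). The 5′ minus 3′ log2 difference between GAPDH probe sets follows RNA degradation. It was -0.51, -0.45 and -1.31 in USP48-labelled replicates 1, 2 and 3, against -0.32, -0.37 and -0.44 in the empty vector arrays (exact permutation test, p = 0.1). That of ACTB was -3.88, -3.44 and -4.14 in USP48-labelled arrays, against -3.26, -3.42 and -3.70 in empty vector arrays (exact permutation test, p = 0.2). The part of any of these measures in the results was not tested. Values with arrays scaled on the hybridization controls (control scaling) are given beside the results they change. Of 9 hepatocyte markers measured, 5 (ALB, APOA1, APOB, SERPINA1 and FGB) lay below the median of every array in both groups. None of the 9 was called by limma, and SERPINA1 alone had an unadjusted p under 0.05, a count of 1. SERPINA1 was called without USP48 overexpression replicate 2 (limma adjusted p = 0.0432) and AFP without empty vector replicate 3 (0.0245). Under control scaling 3 of the 9 hepatocyte markers were called lower and 0 higher. The epithelial marker KRT18 was bright in both groups, at 11.80 ± 0.16 in USP48-labelled arrays and 11.79 ± 0.10 in empty vector arrays, and so was the mesenchymal marker VIM, at 11.15 ± 0.15 in USP48-labelled arrays and 11.57 ± 0.06 in empty vector arrays (log2 values, SD, n = 3 each). These 2 were the brightest markers of their lists. KRT8 averaged 10.57 in USP48-labelled arrays and 10.88 in empty vector arrays. It was not called (-0.31, limma adjusted p = 0.123). KRT19 (2.81 in both groups) and SPARC (1.99 in USP48-labelled arrays, 1.70 in empty vector arrays) lay below the median of every array. Of 6 mesenchymal markers, FN1 was called higher (1.48, with its 7 probe sets from 0.06 to 1.48), and VIM and CDH2 were called lower (-0.42 and -0.65). VIM was not called with the mean of its probe sets (-0.27, limma adjusted p = 0.0555). Of 5 epithelial markers, EPCAM and CDH1 were called lower (-0.42 and -0.38). CDH1 lay below the median of every array in both groups, and it was not called with the mean of its probe sets (limma adjusted p = 0.0637), nor without USP48 overexpression replicate 1 (0.0679), empty vector replicate 1 (0.0516) or empty vector replicate 2 (0.0755). Under control scaling 3 mesenchymal markers were called lower and 1 higher, and 3 epithelial markers were called lower and 0 higher. The summed log2 values of the hepatocyte markers ranged from 32.6 to 33.6 in USP48-labelled arrays and from 31.8 to 33.3 in empty vector arrays, those of the mesenchymal markers from 44.1 to 44.9 in USP48-labelled arrays and from 43.9 to 44.3 in empty vector arrays, and those of the epithelial markers from 33.4 to 35.0 in USP48-labelled arrays and from 34.6 to 35.5 in empty vector arrays. The part of these markers in the results was not tested.

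Most member probe sets were higher in the USP48-labelled arrays, and the largest difference was that of PMAIP1, which encodes the BH3-only protein NOXA. BAK1, MCL1 and BCL2L1 rose as well, so that transcripts of pore-forming, anti-apoptotic and BH3-only proteins changed in the same direction, while 1 probe set of BCL2 fell and BAX was not called. At a limma adjusted p under 0.05 over all probe sets, 16 of 28 member probe sets were called higher and 1 lower, beside 10.6% higher and 13.8% lower of all probe sets. Member probe sets are brighter than most, and among probe sets that name 1 gene and have a mean above the median of every array 17.3% were higher and 21.3% lower. The groups did not overlap for 20 of the 28, against 38.2% of all probe sets. The median log2 difference (USP48-labelled minus empty vector throughout) was 0.63 over the 28 member probe sets and 0.03 over all probe sets. Control scaling lowered every difference by 0.29; with it, 14 member probe sets were higher and 4 lower, beside 3.34% higher and 39% lower of all probe sets, and the share of higher calls over the whole array was 7.9% in place of 43.4%. In these bulk arrays fewer cells of a type and less RNA per cell cannot be told apart.

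**Figure D1:**
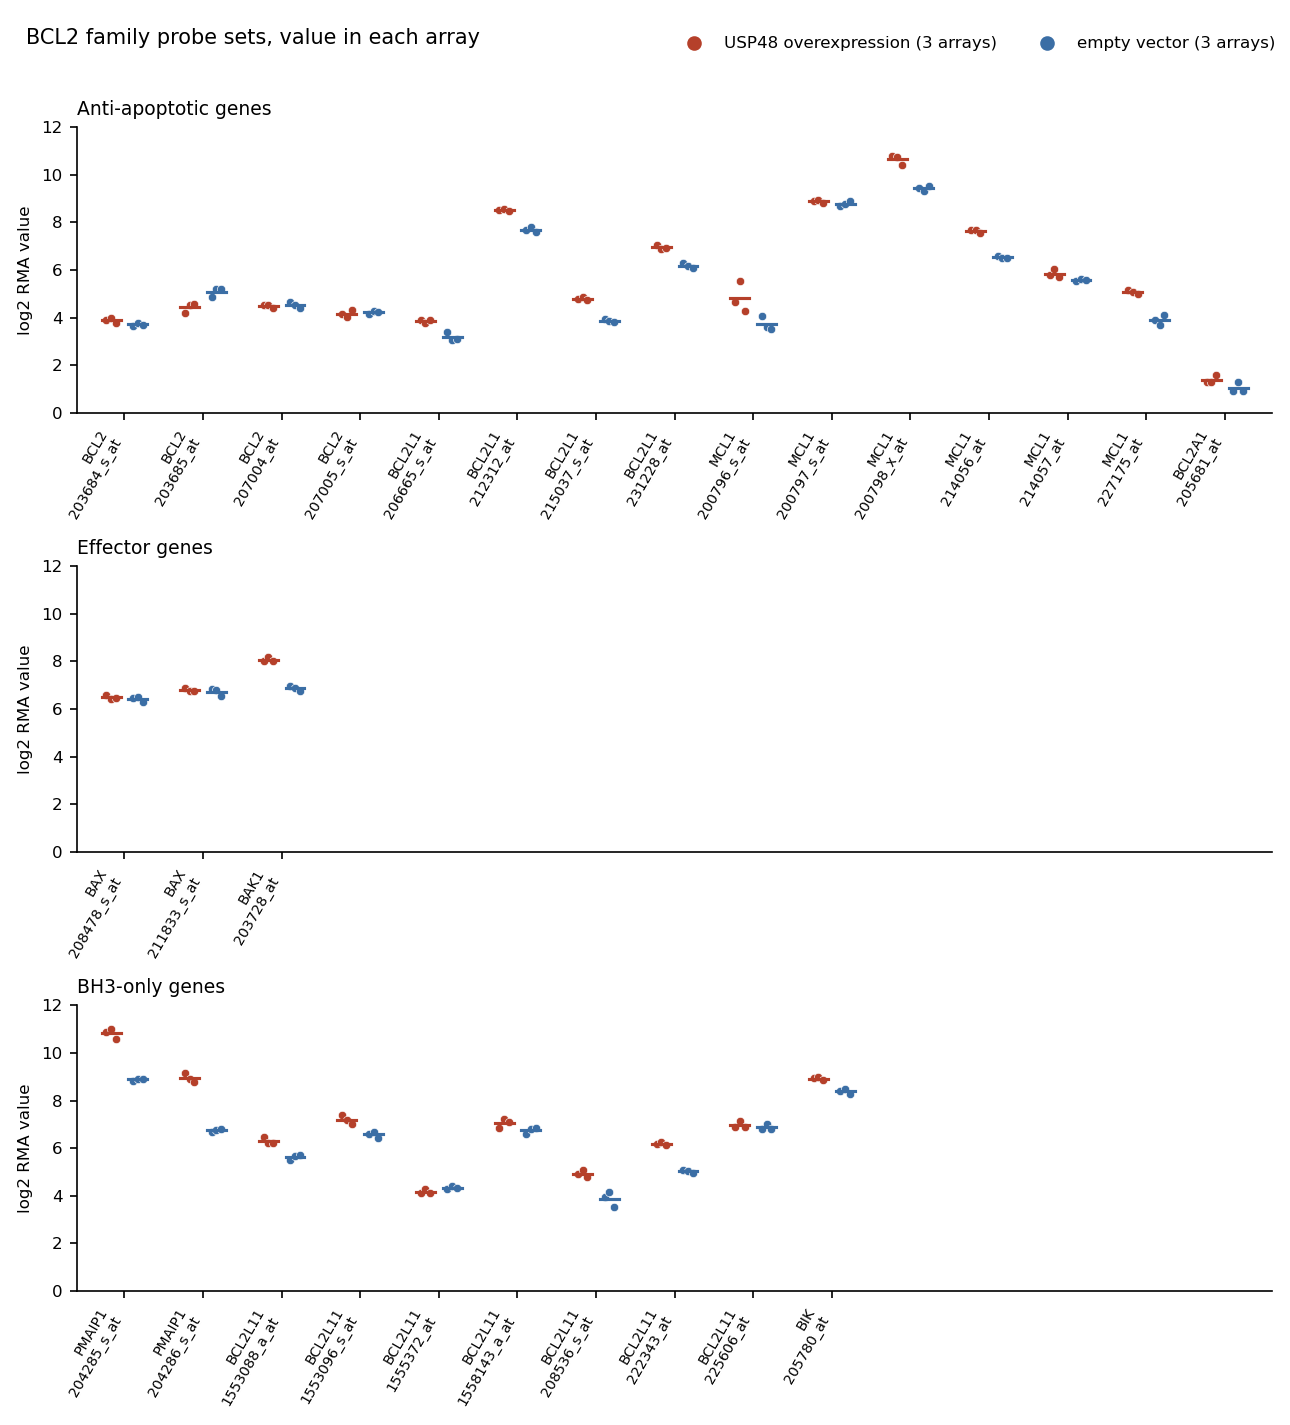
Panels show anti-apoptotic, effector and BH3-only genes, with the value of each BCL2 family probe set (x axis, gene and probe set) in each array, as log2 RMA values on the y axis, with USP48-labelled arrays in red left of empty vector arrays in blue; points are single arrays and bars are means of 3. Both PMAIP1 probe sets and the BAK1 probe set show the groups fully apart, the BAX probe sets overlap, and BCL2A1 lies near the bottom of the scale at means of 1.39 in USP48-labelled arrays and 1.05 in empty vector arrays.

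Among the BH3-only genes, PMAIP1 encodes NOXA, which binds MCL1 and promotes its degradation. Its probe set 204286_s_at had 9.16, 8.90 and 8.78 in USP48-labelled arrays, against 6.66, 6.76 and 6.82 in empty vector arrays (log2 values). The groups lay far apart, and the lowest USP48-labelled value was that of replicate 3. The difference was 2.20 on the log2 scale (SE 0.11, 95% interval 1.95 to 2.45), a 4.59-fold rise (limma adjusted p = 8.87e-07). The brighter probe set 204285_s_at had 10.89, 11.00 and 10.58 in USP48-labelled arrays, against 8.83, 8.91 and 8.91 in empty vector arrays. It differed by 1.94 (SE 0.12, 3.84-fold, limma adjusted p = 2.1e-06), so both probe sets of the gene gave the same direction and nearly the same size. Of all 54613 probe sets, 0.179% had a higher difference than 204286_s_at.

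BCL2L11 encodes BIM, a BH3-only protein that binds all anti-apoptotic members and can act on the effectors directly, and its transcript is spliced into several isoforms. Its 7 probe sets did not move together: 4 were called higher and 3 were not called. Probe set 222343_at had 6.19, 6.26 and 6.12 in USP48-labelled arrays, against 5.09, 5.05 and 4.97 in empty vector arrays, a difference of 1.16 (SE 0.09, limma adjusted p = 9.93e-06). The groups lay well apart there. Probe set 208536_s_at rose by 1.05 log2 units (limma adjusted p = 0.000471), with an empty vector mean of 3.87 ± 0.33, and 1553088_a_at and 1553096_s_at rose by 0.65 and 0.62 (limma adjusted p = 0.00112 and 0.00238). The call of 1553096_s_at was lost under control scaling (0.32, limma adjusted p = 0.0696). The brightest probe set by mean level, 225606_at, overlapped between the groups, with 6.89, 7.13 and 6.91 in USP48-labelled arrays, against 6.81, 7.00 and 6.82 in empty vector arrays. Its difference was 0.10 (95% interval -0.13 to 0.33, limma adjusted p = 0.556). Probe set 1558143_a_at was at 0.31 (limma adjusted p = 0.0804) and was called with the replicate numbers as a block (p adjusted by limma 0.0455), with an intensity trend and robust prior (0.0479) and without USP48 overexpression replicate 1 (0.0337). Probe set 1555372_at was at -0.16 (limma adjusted p = 0.255), and control scaling made it -0.45, a call of lower (limma adjusted p = 0.00794). A single value for BCL2L11 therefore depends on the probe sets used. It was 0.10 with the brightest probe set (adjusted p = 0.503 over all genes, by limma) and 0.53 with the mean of all 7 (limma adjusted p = 0.000677).

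BIK, a BH3-only protein of the endoplasmic reticulum and mitochondria, was measured by 1 probe set. It had 8.94, 8.99 and 8.84 in USP48-labelled arrays, against 8.42, 8.50 and 8.27 in empty vector arrays. The groups did not overlap, and the rise was 0.53 on the log2 scale (SE 0.10, 1.44-fold, limma adjusted p = 0.00226). Under control scaling the difference was 0.23 and was not called (limma adjusted p = 0.132).

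Of the effectors, BAK1 rose and BAX was not called. BAK1, which resides in the mitochondrial outer membrane and is held there by MCL1 and BCL2L1, had 8.04, 8.18 and 8.01 in USP48-labelled arrays, against 6.96, 6.90 and 6.74 in empty vector arrays. The lowest USP48-labelled array lay more than a log2 unit above the highest empty vector array. The difference was 1.20 (SE 0.10, 95% interval 0.99 to 1.42), a 2.30-fold rise (limma adjusted p = 1.34e-05), and 0.91 under control scaling. BAX, which is mostly cytosolic until it is activated, had 6.88, 6.78 and 6.77 with 211833_s_at in USP48-labelled arrays, against 6.83, 6.78 and 6.53 in empty vector arrays. Its groups overlapped, and the difference was 0.09 (95% interval -0.14 to 0.32, limma adjusted p = 0.582). The other BAX probe set, 208478_s_at, was at 0.07 (95% interval -0.15 to 0.28, limma adjusted p = 0.667). Both BAX values were negative after control scaling (-0.20 and -0.22) and were not called there either. The BAK1 gene has only this 1 member probe set, so no second probe set could be set beside it.

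**Figure D2:**
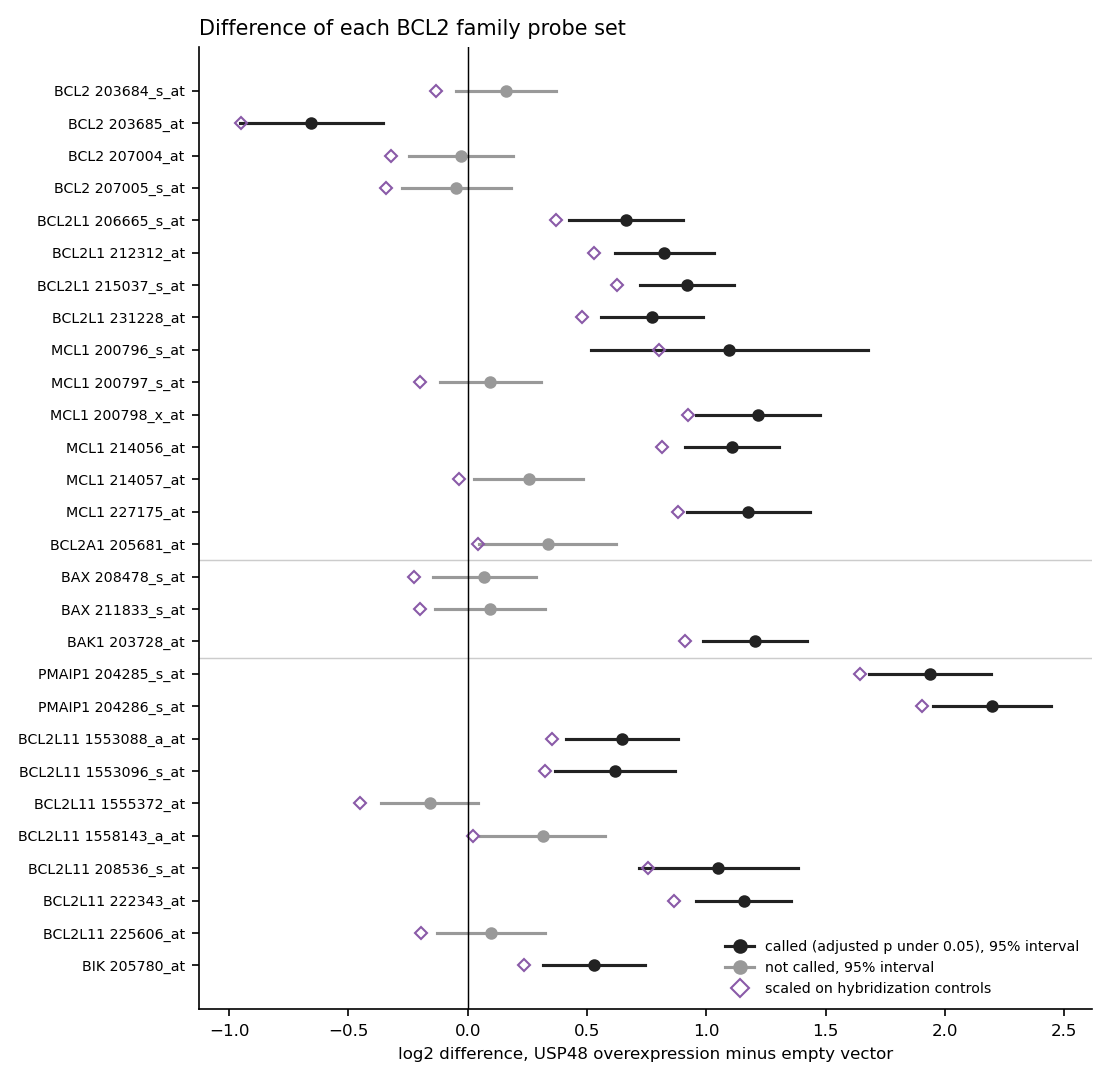
Log2 difference of each BCL2 family probe set, USP48-labelled minus empty vector arrays (x axis), with 95% intervals from limma; black points passed an adjusted p of 0.05, grey points did not, and open diamonds show the value under control scaling. The 2 PMAIP1 probe sets lie highest at 1.94 and 2.20, and 203685_at of BCL2 is the 1 called value below 0.

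Among the anti-apoptotic genes, MCL1 encodes a short-lived protein that restrains BAK1 and is the partner of NOXA, and 4 of its 6 probe sets were called higher. The brightest, 200798_x_at, had 10.78, 10.77 and 10.42 in USP48-labelled arrays, against 9.46, 9.32 and 9.53 in empty vector arrays. It rose by 1.22 log2 units (SE 0.12, 2.32-fold, limma adjusted p = 3.44e-05), with replicate 3 the lowest of the USP48-labelled arrays. The suffix _x_at marks probe sets whose probes may also match other transcripts. Probe set 214056_at, without that suffix, had 7.69, 7.68 and 7.56 in USP48-labelled arrays, against 6.60, 6.50 and 6.51 in empty vector arrays, a difference of 1.11 (SE 0.09, limma adjusted p = 1.21e-05). Probe sets 227175_at and 200796_s_at were higher by 1.18 and 1.10. The SD of 200796_s_at was 0.64 in USP48-labelled arrays (n = 3), and its call (limma adjusted p = 0.0108) was lost without empty vector replicate 3 (0.0551). Against these, 200797_s_at, also a bright probe set, had 8.91, 8.94 and 8.80 in USP48-labelled arrays and 8.70, 8.76 and 8.91 in empty vector arrays. Its groups overlapped and its difference was 0.09 (95% interval -0.12 to 0.31, limma adjusted p = 0.536). Probe set 214057_at was at 0.26 (limma adjusted p = 0.102) and was called after quantile normalization (0.33, limma adjusted p = 0.0424). MCL1 transcripts are spliced into a long anti-apoptotic and a short pro-apoptotic form, and the positions of the probes on them were not analysed here.

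BCL2L1 encodes BCL-X, whose long form is anti-apoptotic and whose short form is pro-apoptotic, and all 4 of its probe sets rose. Probe set 212312_at had 8.52, 8.56 and 8.47 in USP48-labelled arrays, against 7.69, 7.81 and 7.59 in empty vector arrays. The groups did not overlap, and the rise was 0.82 on the log2 scale (SE 0.09, 1.77-fold, limma adjusted p = 0.000101). The other probe sets rose by 0.92 for 215037_s_at, 0.77 for 231228_at and 0.67 for 206665_s_at (limma adjusted p = 3.57e-05, 0.000195 and 0.00105), a range of 0.67 to 0.92 within the gene. The dimmest, 206665_s_at, is tied by the platform annotation to the record of the short form. Its empty vector mean of 3.18 ± 0.18 lay below the median of every array, so its difference is that of dim values. Under control scaling the 4 differences were 0.37 to 0.63 and all were called.

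BCL2 itself, the founding member of the family, was the 1 member gene with a call of lower. Probe set 203685_at, tied by the platform annotation to the alpha transcript, had 4.19, 4.55 and 4.58 in USP48-labelled arrays, against 4.86, 5.21 and 5.21 in empty vector arrays. The groups did not overlap and the difference was -0.66 (SE 0.14, 95% interval -0.96 to -0.36), 1.58-fold lower (limma adjusted p = 0.00474). The other 3 BCL2 probe sets lay between 3.67 and 4.64 in all 6 arrays and overlapped between the groups. They were at -0.03 for 207004_at, -0.05 for 207005_s_at and 0.16 for 203684_s_at (limma adjusted p = 0.878, 0.794 and 0.262). The first and the second of these are tied to the beta transcript, and control scaling made both a call of lower (-0.32 and -0.34, limma adjusted p = 0.0496 and 0.0268). With the mean of its 4 probe sets BCL2 was at -0.14 and not called (limma adjusted p = 0.172).

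BCL2A1, an NF-κB target known mainly from blood cells, had the lowest level of all member probe sets. Its probe set 205681_at had 1.30, 1.28 and 1.59 in USP48-labelled arrays, against 0.93, 1.30 and 0.93 in empty vector arrays. These values lie far below the array medians of 3.75 to 3.79, and the groups overlapped. The difference was 0.34 (limma adjusted p = 0.0883), and it was called without empty vector replicate 2 (0.46, limma adjusted p = 0.0312). Of 10 leukocyte markers measured, 7 lay below the median of every array in both groups, 0 were called by limma and 2 had an unadjusted p under 0.05 (CD14 and ITGAM, at 0.32 and 0.23). CD14 was called without USP48 overexpression replicate 1 (limma adjusted p = 0.0109), with the replicate numbers as a block (0.0344) and with the genes' averaged probe sets (0.0488), and ITGAM with averaged probe sets (0.00986) and without the dimmest 33.3% (0.0457). Under control scaling 1 of the 10 leukocyte markers was called lower and 0 were called higher. Their summed log2 values ranged from 33.3 to 34.7 in USP48-labelled arrays and from 32.5 to 33.4 in empty vector arrays, with PTPRC, the pan-leukocyte marker, at 1.88 in USP48-labelled arrays and 1.96 in empty vector arrays.

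**Figure D3:**
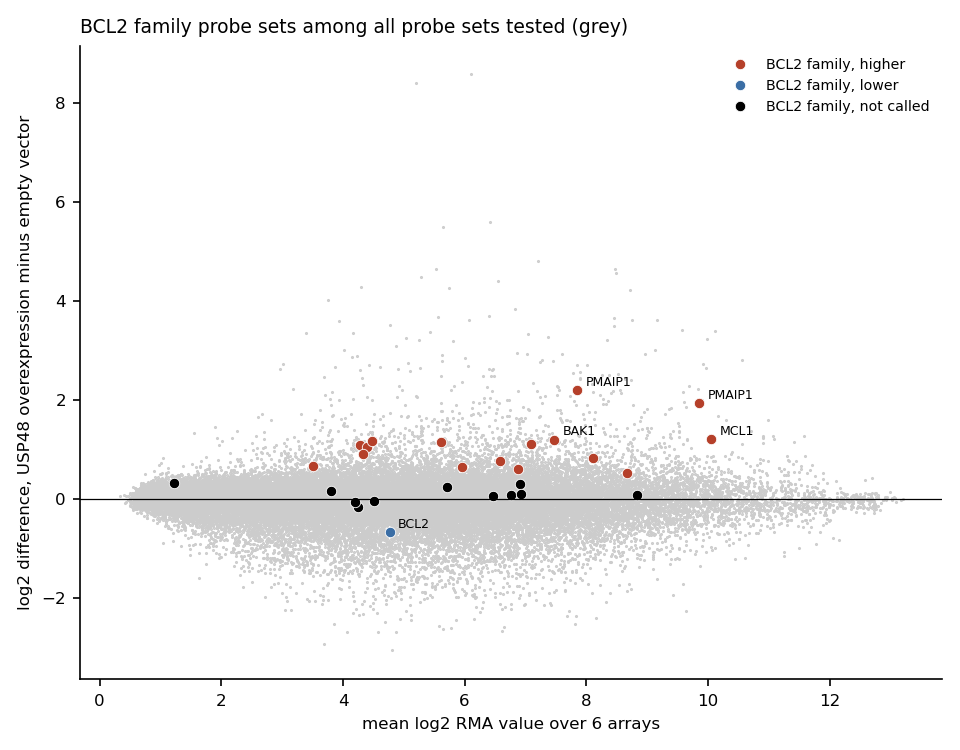
Mean log2 RMA value over the 6 arrays (x axis) against the log2 difference, USP48-labelled minus empty vector (y axis), for all 54613 probe sets in grey and the 28 BCL2 family probe sets in colour. Members called higher (red) lie at mean values from about the array medians up to those of PMAIP1 and MCL1, and BCL2A1, the black point at the far left, was not called.

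Differences between 2 member genes within an array are not moved by any scaling of whole arrays, so 6 pairs of member genes were compared in this way, with the brightest probe set of each gene. These pairs were picked after the values were seen and are descriptions without a test, and since probe sets differ in brightness only the change between the groups can be read. PMAIP1 minus MCL1 was 0.11, 0.24 and 0.16 in USP48-labelled arrays, against -0.64, -0.41 and -0.62 in empty vector arrays, a change of 0.72. The NOXA transcript thus rose more than the MCL1 transcript in these probe sets. PMAIP1 minus BCL2L1 changed by 1.12, and BAK1 minus BAX was 1.16, 1.40 and 1.24 in USP48-labelled arrays, against 0.13, 0.12 and 0.21 in empty vector arrays, a change of 1.11. BCL2L1 minus BCL2 was 4.08 ± 0.23 in USP48-labelled arrays and 2.60 ± 0.22 in empty vector arrays (SD, n = 3 each), a change of 1.48. BAK1 minus MCL1 was -2.58 ± 0.16 in USP48-labelled arrays and -2.57 ± 0.19 in empty vector arrays, and the groups overlapped. BAK1 and MCL1 therefore differed between the groups by nearly the same amount. With 200797_s_at in place of the brightest MCL1 probe set these MCL1 pairs would change, since that probe set was at 0.09. The BCL2 probe set used was 203685_at, at -0.66. With any other BCL2 probe set (-0.03, -0.05 and 0.16) the change of BCL2L1 minus BCL2 would be smaller.

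**Figure D4:**
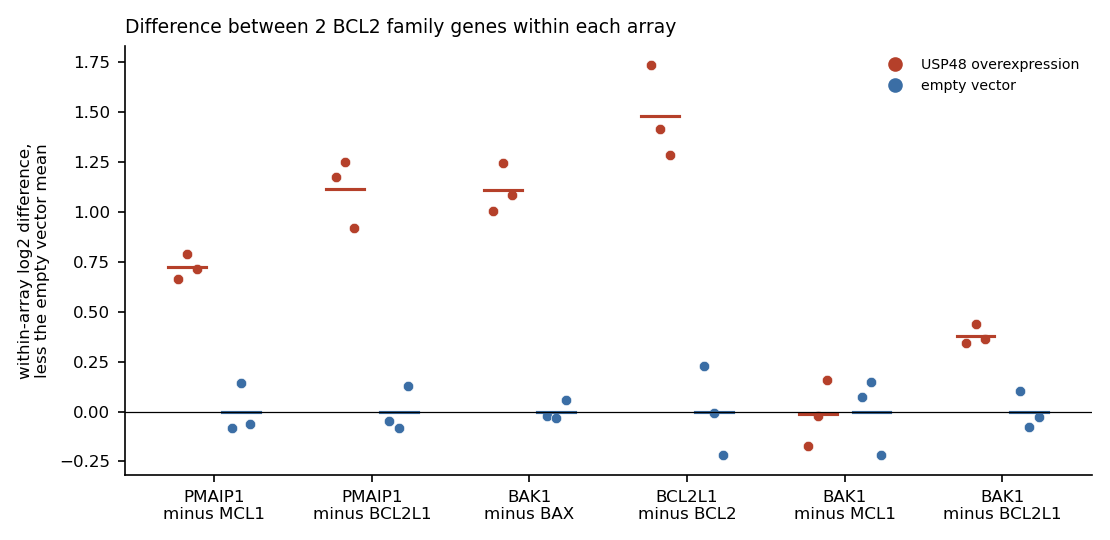
Log2 difference between 2 BCL2 family genes within each array, less the empty vector mean of that pair (y axis), for 6 pairs (x axis), with USP48-labelled arrays in red left of empty vector arrays in blue and bars at the means of 3. The groups are apart for 5 pairs and overlap for BAK1 minus MCL1.

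For the wider pathway, each gene was represented by its brightest probe set and tested over all 19775 genes, of which 15.7% were higher and 14.1% lower at a limma adjusted p under 0.05. By this measure 5 of 9 member genes were higher (PMAIP1, MCL1, BAK1, BCL2L1 and BIK), 1 was lower (BCL2) and 3 were not called (BCL2A1, BAX and BCL2L11), with a median log2 difference of 0.53 beside 0.05 for all genes. Under control scaling 4.84% of all genes were higher and 37.9% lower, and these medians were 0.23 and -0.24. The other BCL2 family genes were less one-sided in count: of 13, 3 rose, 2 fell and 8 were not called, with a median of 0.08. Under control scaling 2 were higher and 6 lower. HRK, a BH3-only protein known from neurons, rose by 1.08 log2 units (USP48-labelled 7.93 ± 0.07, empty vector 6.86 ± 0.08, SD, n = 3 each; limma adjusted p = 8.99e-06), and its 5 probe sets ranged from 0.42 to 1.14. BCL2L13, a mitochondrial membrane protein, was at 0.94 (limma adjusted p = 2.54e-05), with another probe set at -0.06. BAD, a BH3-only protein controlled by phosphorylation, and BCL2L12 were at -0.36 and -0.35 (limma adjusted p = 0.014 and 0.0295). BAD did not keep its call when empty vector replicate 2 was left out (limma adjusted p = 0.0654), nor BCL2L12 without that array (0.0918), empty vector replicate 1 (0.111) or USP48 overexpression replicate 3 (0.0845).

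Genes of the apoptosome, caspases and other mitochondrial factors were called lower more often than higher. Of 16 measured, 1 was called higher, 8 lower and 7 were not called, with a median of -0.19, and under control scaling 8 were called, each of them lower. OPA1, which shapes the inner membrane cristae that hold cytochrome c, was at -0.89 (limma adjusted p = 0.000443), ENDOG, a mitochondrial nuclease, at -0.61 (0.000908) and APAF1, the scaffold of the apoptosome, at -0.55 (0.00097). The 4 probe sets of OPA1 ranged from -1.19 to 0.003, with a mean of -0.74 (limma adjusted p = 0.00102). XIAP, which inhibits caspases, was at -0.76 (limma adjusted p = 0.000542), while its 7 probe sets ranged from -0.78 to 0.93. The fall of APAF1 was not called with the mean of its probe sets (-0.06, limma adjusted p = 0.581). The 1 call of higher was that of CASP6, a caspase named here after its value was seen, at 0.25 (limma adjusted p = 0.0451) with its other probe set at 0.05. That call was lost under control scaling, median centring and the replicate block, with the mean of its probe sets, and when any 1 array other than USP48 overexpression replicate 2 was left out.

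Genes known to act on the stability of the MCL1 and NOXA proteins included several of the larger falls. Of 10, 2 rose (1 without USP48 overexpression replicate 2 or without empty vector replicate 3), 5 fell and 3 were not called, with a median of -0.41, and under control scaling 5 were called, each of them lower. USP9X, the deubiquitinase that stabilises MCL1, was at -1.36 (USP48-labelled 8.18 ± 0.16, empty vector 9.54 ± 0.01, SD, n = 3 each; limma adjusted p = 4.58e-06). CUL5 and CUL3, scaffolds of cullin ubiquitin ligases, were at -1.83 and -2.10 (limma adjusted p = 2.46e-06 and 2.43e-06), and CDC20, the activator of a mitotic ubiquitin ligase, at -0.88 (0.000254). The probe sets of these genes ranged from -1.59 to -0.05 for USP9X, from -2.10 to -0.11 for CUL3 and from -1.83 to 0.08 for CUL5. Averaged over the probe sets of each gene, the differences were -0.82 for USP9X, -1.15 for CUL3 and -1.04 for CUL5, all called.

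Transcription factors known to act on promoters of the family were often higher. Of 14 measured, 10 rose and 4 were not called, with a median of 0.41, and under control scaling 6 were higher and 1 lower. DDIT3, which encodes CHOP and is known to induce BH3-only genes under endoplasmic reticulum stress, was at 2.79 (limma adjusted p = 4.42e-07). ATF3, a stress-induced factor, was at 2.43 with another probe set at 0.21, JUN, an AP-1 subunit, at 1.02, and TRIB3, a pseudokinase counted with these factors, at 0.88 (limma adjusted p = 4.42e-07, 1.85e-05 and 0.000268). Of 16 measured p53 targets outside the family, 7 rose, 4 fell and 5 were not called, with a median of 0.19, and under control scaling 6 were higher and 6 lower. GADD45A, at 2.29, and SESN2, at 1.40, are also known to respond to ATF4 or other stress factors, and FAS, a death receptor, was at 0.95 (limma adjusted p = 3.63e-07, 2.34e-05 and 6.41e-05). The 5 probe sets of FAS ranged from 0.12 to 0.96, with a mean of 0.60. ZMAT3 decreased by 1.79 log2 units (limma adjusted p = 1.49e-05), with another probe set at 0.29. All 8 measured NF-κB survival targets outside the family rose, with a median of 1.15, and 6 of them were called higher under control scaling. TRAF1 was at 2.28, TNFAIP3 at 2.19, GADD45B at 2.18 and IER3 at 1.28 (limma adjusted p = 2.7e-06, 3.39e-07, 3.39e-07 and 1.45e-05). The probe sets of GADD45B ranged from 0.96 to 2.18, with a mean of 1.44.

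**Figure D5:**
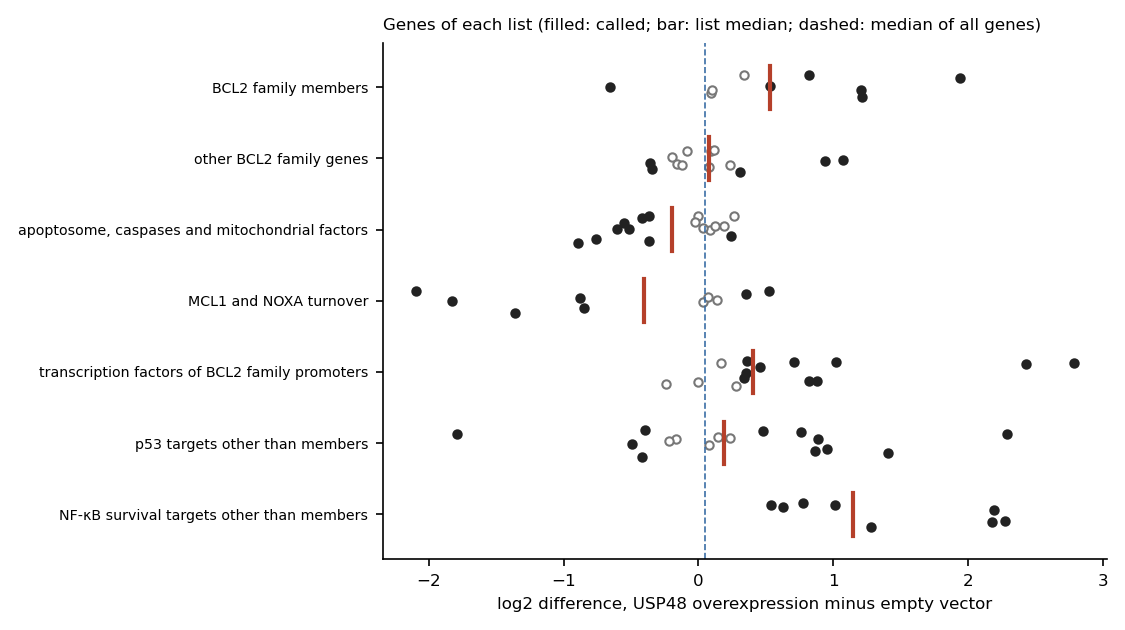
Log2 difference of each gene, USP48-labelled minus empty vector (x axis), by its brightest probe set, for the member genes and each list of related genes (rows); filled points were called, open points were not, red bars are list medians and the dashed line is the median of all genes at 0.05. The NF-κB survival targets all lie to the right of 0, while the list of MCL1 and NOXA turnover genes reaches to -2.10.

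The 3 genes whose profile over the 6 arrays, less its mean, lay closest to that of PMAIP1 204286_s_at were TNFAIP3, GADD45A and MXD1. Their root mean square distances from it were 0.09, 0.10 and 0.15 log2 units among 19774 genes compared. TNFAIP3 had 8.41, 8.29 and 8.17 in USP48-labelled arrays, against 6.17, 6.00 and 6.13 in empty vector arrays. The likeness is mostly that of a group difference near the same size, and it says nothing of shared control.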

How the data were processed

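The data are 6 Affymetrix arrays, 3 per group of SNU-449 cells, with group and replicate number taken from the titles. The deposited values are log2 values, 1 per probe set and array, which the authors computed by RMA, per the submitters' processing notes (its version: not given in the sources used here). Since RMA equalises arrays, a shift in the RNA content of cells is not visible. No detection calls were used, and the number of arrays limits the precision.

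Of 54675 probe sets, 62 controls were left out. Gene symbols came from the platform annotation, with 41037 of 41091 single-symbol probe sets matched to RefSeq by Entrez ID and 0 symbols changed. Differences were tested by limma 3.58.1 under R 4.3.3 (lmFit, eBayes, two-sided, Benjamini-Hochberg, threshold 0.05) over 54613 probe sets, and over 19775 genes with the probe set of highest mean per gene. Single array measures had an exact permutation test. The test was checked on simulated data. Members, lists and alternatives were chosen with earlier results of these data known. Genes named by the rule are the members, USP48 and up to 4 called genes of each list with the largest absolute difference. Where a list had no called gene, 2 were named. The 3 genes nearest in profile to PMAIP1 204286_s_at were named by that distance. Other markers and CASP6 were named outside the rule. Listed genes with no probe set naming them alone were not analysed here. Alternatives were quantile normalization, median centring, scaling on the hybridization controls, a robust prior with intensity trend, removal of the dimmest 33.3%, the replicate number as a block, each array left out, a threshold of 0.01, a 2-fold limit and averaging over the probe sets of each gene. Figures were drawn with matplotlib 3.10.9.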

Additional observations from a re-analysis of the deposited data

How the results depend on the processing

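The counts of called member probe sets were 15 to 17 higher and 1 lower when each array was left out in turn, against 16 and 1 with all arrays, and those of member genes 5 to 6 higher and 1 lower. The counts over all probe sets were then 4170 to 5403 higher and 5890 to 7191 lower, over all genes 2368 to 2984 and 2179 to 2689, and over the genes of the 6 related lists 26 to 30 and 16 to 20. Scaling on the hybridization controls moved the balance most among the scalings tried: 1826 probe sets were higher and 21292 lower over the whole array, against 5768 and 7519 as deposited, 957 genes higher and 7495 lower, against 3103 and 2794, 4 member probe sets lower, and 20 list genes higher, against 31. With an adjusted p under 0.01, 3301 probe sets and 1936 genes were higher. A limit of 2-fold left 9 member probe sets higher and 0 lower, 3 member genes higher and 0 lower, 679 probe sets higher and 1269 lower, 362 genes higher and 377 lower, and 11 list genes higher and 4 lower. Averaged over the probe sets of each gene, 0 of 9 member genes were lower by limma, while BCL2 stood at -0.14 (adjusted p = 0.172). Probe sets 207004_at and 207005_s_at of BCL2, called lower under control scaling alone, ranged from -0.09 to 0.03 and from -0.13 to 0.03 when each array was left out. No other member or list gene named by the rule that was called as deposited or under control scaling changed direction under an alternative. Among values not called on either scale, both BAX probe sets, 203684_s_at of BCL2, 225606_at of BCL2L11, 200797_s_at and 214057_at of MCL1, and the markers AFP, SERPINA1 and ITGAM were positive as deposited and negative under control scaling.

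The deviations of same-numbered arrays from their group means correlated at -0.02, 0.11 and -0.02 across probe sets. Those of differently numbered arrays correlated at -0.079 to 0.095. Since the deviations of 3 arrays from their own mean are not independent, these values do not settle whether the replicate numbers pair the arrays. With the replicate block in the fit 17 member probe sets were higher and 1 lower.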
